A study of Homo sapiens with 9 samples.

Results

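Cytochrome P450 enzymes are heme proteins that insert oxygen into drugs, pollutants, fatty acids, steroids, retinoids and vitamin D. The members described here were all protein-coding genes of the count table whose symbol has the form of a P450 gene (CYP, a family number, a subfamily letter and a gene number). The 5 genes of sterol and bile acid synthesis, CYP51A1, CYP7A1, CYP7B1, CYP8B1 and CYP27A1, were left out. This gave 50 members of 58735 annotated genes, chosen by name and not by expression. Poly(A) RNA was sequenced from 3 cell cultures each of Huh-7 (wild type), Ako-3 (APOB knockout) and Mko-3 (MTTP knockout), which makes 9 libraries. Huh-7 is a human hepatoma line that secretes lipoproteins. APOB encodes apolipoprotein B, their structural protein, and MTTP encodes the large subunit of the microsomal triglyceride transfer protein that lipidates it. Both knockouts were made in Huh-7 with CRISPR-Cas9, and each is a single cell clone, so a difference from Huh-7 cannot be told apart from one that arose in deriving that clone. All 3 cell lines were kept overnight without serum before RNA extraction, and no dose or time varied.

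In the liver, P450 enzymes of families 1 to 3 carry out most of the oxidation of drugs and other foreign compounds, and those of family 4 hydroxylate fatty acids and eicosanoids. Microsomal P450s receive electrons from P450 oxidoreductase, encoded by POR, and many need ligand-activated receptors for their transcription. The aryl hydrocarbon receptor (AHR) drives the CYP1 genes, and the pregnane X receptor (NR1I2) and constitutive androstane receptor (NR1I3) drive CYP2B6, the CYP2C genes and CYP3A4. CYP26 enzymes inactivate retinoic acid. Hepatoma lines are known to express few of the drug-metabolizing P450s of adult liver.

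Libraries held 14638727 to 20179760 counts on genes. The share of counts on mitochondrial genes was 7.06% to 7.40% in Ako-3 cells and 5.52% to 6.17% in the other libraries, and the part of this difference in the results below was not tested. APOB fell by 1.36 ± 0.13 (log2 fold change ± SE, adjusted p = 7.13e-05) in Ako-3 cells and MTTP by 2.88 ± 0.065 (adjusted p = 9.36e-19) in Mko-3 cells, in the directions their labels give. All 10 hepatocyte markers had a mean above 1 FPKM (fragments per kilobase of gene length, scaled by the authors with a size factor per library) in each group. They summed to 5522 to 5789 FPKM in Huh-7, 6505 to 6766 in Ako-3 and 5474 to 5647 in Mko-3 cells. By adjusted p alone, 8 were higher and 0 lower in Ako-3 than in Huh-7 cells (median log2 fold change 0.47). Of all genes, 25.5% were higher and 24.4% lower there. In Mko-3 against Ako-3 cells 2 were higher and 8 lower (median -0.45), beside 21.1% and 20.6% of all genes. In Mko-3 against Huh-7 cells 3 were higher and 3 lower, beside 26.9% and 27.1%. The 7 fibroblast markers summed to at most 1.30 FPKM, and DCN was at or under 3 counts in every library. Endothelial markers summed to 7.34 to 14.7 FPKM, mostly PECAM1, with KDR and LYVE1 at or under 3 counts, and macrophage markers to 2.79 to 5.87 FPKM, with PTPRC, CD68 and CD163 at or under 3 counts. Cholangiocyte markers summed to 118 to 128 FPKM in Huh-7 and Ako-3 cells and 166 to 171 FPKM in Mko-3 cells, with KRT7 at or under 3 counts in every library. The part of these differences in the P450 results was not tested. In such bulk RNA, fewer cells of a type and less RNA per cell cannot be told apart.

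Huh-7 cells expressed a small part of the family. Of 50 members, 16 had a mean above 1 FPKM in Huh-7 cells, 15 in Ako-3 cells and 15 in Mko-3 cells. A mean above 10 FPKM was reached by 4 members in Huh-7 cells (CYP26B1, CYP4F3, CYP4F12 and CYP1A1) and by 2 members in each knockout (CYP26B1 and CYP2B6). At the other end, 6 members had no count in any library. These were CYP4A11, CYP4A22, CYP4F8 and CYP4F22, which are fatty acid hydroxylases or their relatives, and CYP11B1 and CYP11B2, which make cortisol and aldosterone in the adrenal cortex. A further 5 members never exceeded 3 counts (CYP24A1, CYP4B1, CYP2A13, CYP2F1 and CYP4Z1). CYP3A4, the leading drug-metabolizing P450 of adult liver, had 0 to 4 counts per library, and CYP2E1, the ethanol oxidase, had 0 to 7. CYP3A7, the fetal counterpart of CYP3A4, had 0 to 14 counts, and CYP2C19 had 2 to 7. At these depths such genes were near the limit of detection, since a count of 0 allows up to 3 counts, and group differences among them were not tested.

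The groups differed less in the summed level of the 50 members than in its make-up. The sum was 101 ± 3.54 FPKM (SD, n = 3) in Huh-7, 94.8 ± 3.19 in Ako-3 and 97.3 ± 1.49 in Mko-3 cells. CYP26B1 contributed 25.3% ± 1.70 of this sum in Huh-7 cells, 23.4% ± 0.551 in Ako-3 cells and 36.6% ± 0.210 in Mko-3 cells. The share of CYP2B6 was 4.14% ± 0.319 in Huh-7, 17.6% ± 0.564 in Ako-3 and 10.5% ± 0.916 in Mko-3 cells. That of CYP4F3 and CYP4F12 was 12.3% ± 0.786 and 11.3% ± 0.177 in Huh-7 cells. In Mko-3 cells the same genes held 5.06% ± 0.280 and 4.81% ± 0.118. The 6 members with the highest mean FPKM (CYP26B1, CYP2B6, CYP4F3, CYP2J2, CYP4F12 and CYP1A1) together made up 69.8% ± 0.526 of the sum in Huh-7, 69.2% ± 1.39 in Ako-3 and 72.6% ± 1.44 in Mko-3 cells.

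**Figure D1:**
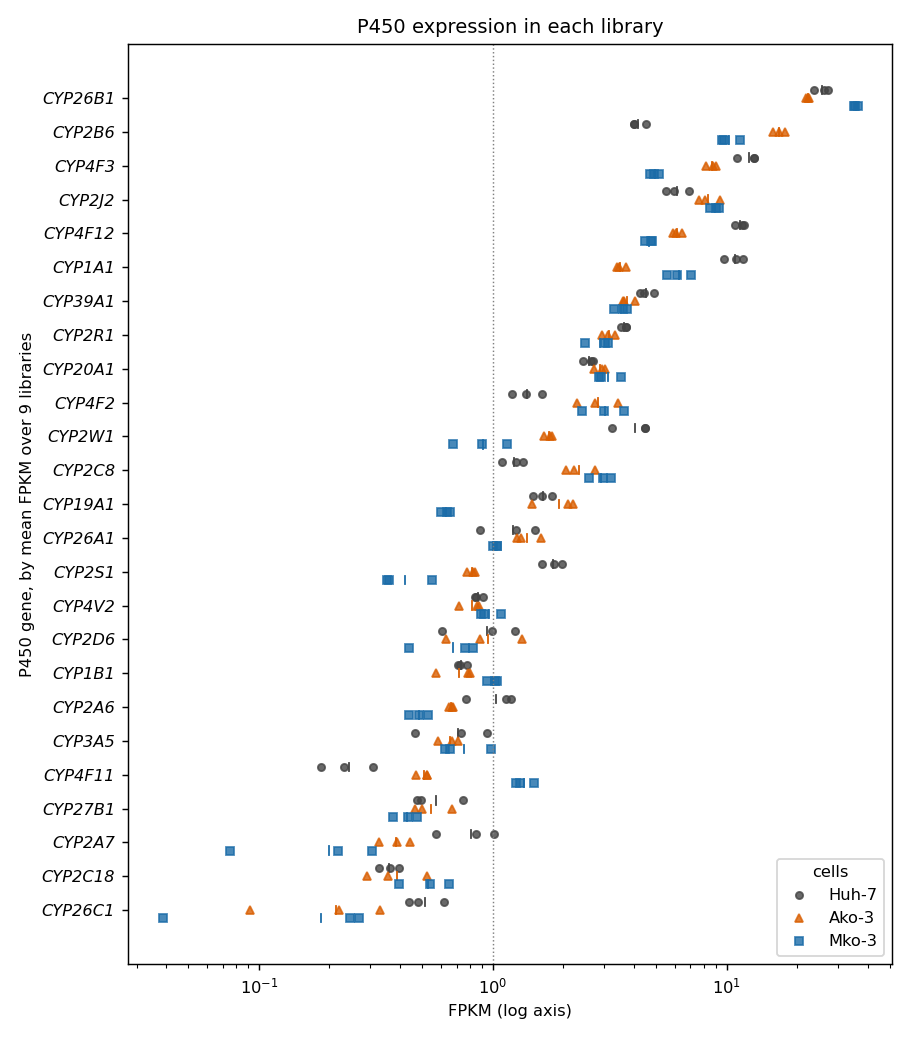
FPKM (horizontal log axis) of 25 tested P450 genes in each of 9 libraries, ordered by mean FPKM. Circles are Huh-7, triangles Ako-3 and squares Mko-3 libraries, short vertical lines are group means, and the dotted line marks 1 FPKM. CYP26B1 leads in every group, and CYP2B6 lies between 4.0 and 4.52 FPKM in Huh-7 and between 9.59 and 17.7 FPKM in the knockouts.

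**Figure D2:**
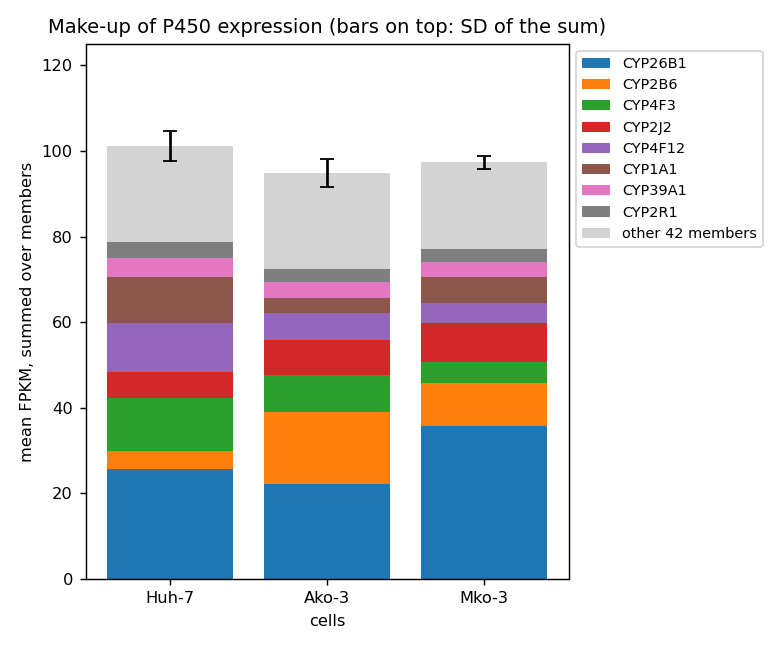
Stacked bars of mean FPKM in the 3 cell types for the 8 P450 genes with the highest means and the other 42 members summed. Error bars on top are the SD of the summed FPKM over 3 libraries. The totals lie between 94.8 and 101 FPKM, while the CYP26B1 and CYP2B6 segments are larger in Mko-3 and Ako-3 cells, respectively.

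Of the 50 members, 26 had enough counts to be tested, in all comparisons alike, and 24 did not. Each knockout was compared with Huh-7, and the knockouts with each other, with the quasi-likelihood test of edgeR, and p-values were adjusted by Benjamini-Hochberg over all genes tested. Genes whose log2 fold change reached 1 in size with an adjusted p up to 0.05 are called differentially expressed. In Ako-3 cells 3 members rose and 5 fell. Over all 15787 genes tested, 8.52% were differentially expressed, 3.52% higher and 5% lower. In Mko-3 cells 4 members rose and 8 fell, where the share over all 15745 genes was 11%, with 3.82% higher and 7.22% lower. Both knockouts are compared with the same Huh-7 libraries. In both, CYP2B6 and CYP4F11 rose, and CYP2W1, CYP2S1, CYP2A7 and CYP26C1 fell, and no member rose in one knockout and fell in the other. CYP1A1 passed both thresholds in Ako-3 cells and not in Mko-3 cells. CYP2C8, CYP4F2, CYP4F3, CYP4F12, CYP19A1 and CYP2A6 did so in Mko-3 cells and not in Ako-3 cells. The median log2 fold change of the tested members was -0.09 in Ako-3 and -0.31 in Mko-3 cells, beside -0.01 over all genes in both.

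By adjusted p alone, without the fold threshold, 6 members lay above and 8 below their Huh-7 level in Ako-3 cells, beside 25.5% and 24.4% of all genes (49.9% in either direction). In Mko-3 cells these were 8 and 11 members, beside 26.9% and 27.1% (54%). In all 3 Ako-3 libraries, 7 members were higher and 11 lower than in every Huh-7 library, beside 31% and 26.6% of all genes (57.6%). In Mko-3 libraries these were 11 and 11 members, beside 32.4% and 28.3% (60.7%). With 3 libraries against 3, an exact permutation test of a single gene cannot go below p = 0.1.

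**Figure D3:**
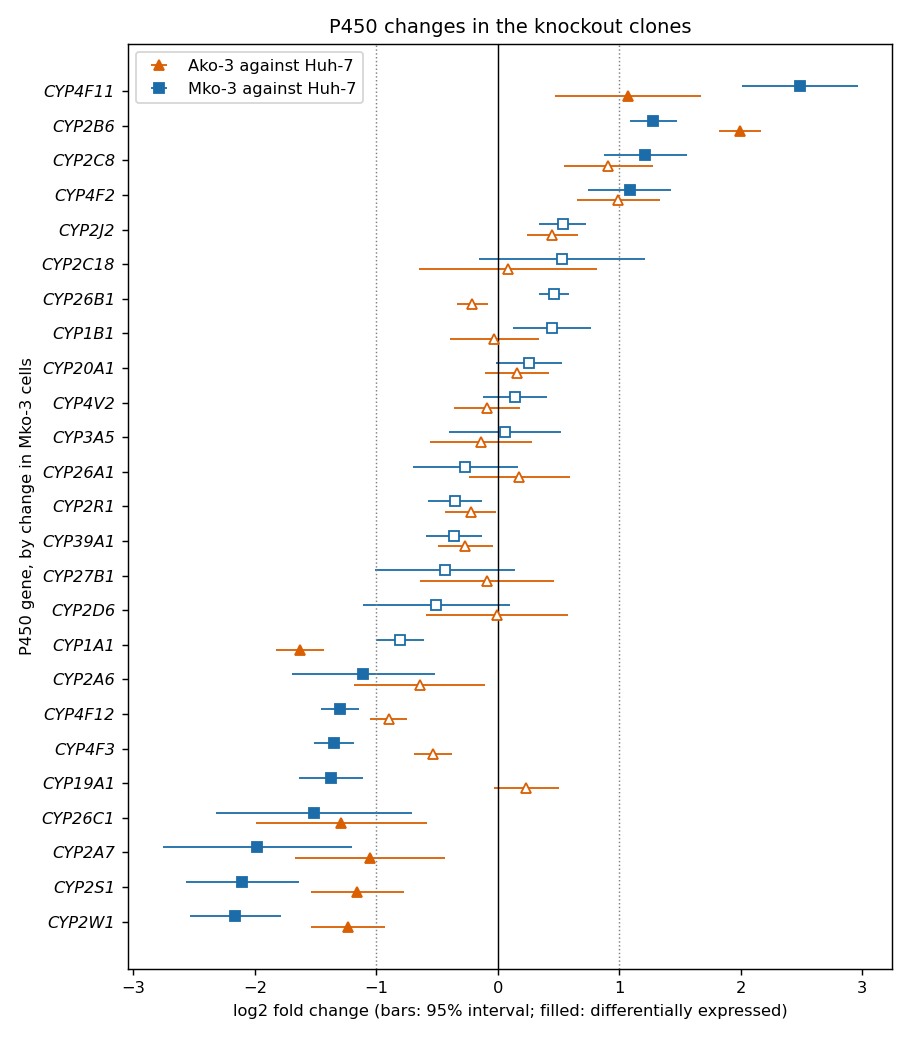
Log2 fold change against Huh-7 of 25 tested P450 genes in Ako-3 (triangles) and Mko-3 cells (squares), with bars of 95% confidence intervals. Filled symbols are differentially expressed, dotted lines mark the fold threshold, and genes are ordered by the change in Mko-3 cells, from CYP4F11 (2.48) to CYP2W1 (-2.16).

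Among the CYP1 genes, which oxidize polycyclic aromatic compounds, CYP1A1 fell in Ako-3 cells. It had 11.0, 9.74 and 11.7 FPKM in the Huh-7 libraries, 3.39, 3.69 and 3.45 in Ako-3 and 6.14, 5.57 and 7.07 in Mko-3. All Ako-3 libraries lay below all Mko-3 libraries, and these below all Huh-7 libraries. The log2 fold change was -1.63 ± 0.10 (SE) in Ako-3 cells (adjusted p = 6.81e-11). In Mko-3 cells it was -0.81 ± 0.10 (adjusted p = 7.03e-07), short of the fold threshold. CYP1B1, which also acts on estrogens, had 0.708 to 0.773 FPKM in Huh-7, 0.572 to 0.803 in Ako-3 and 0.948 to 1.05 in Mko-3 libraries. Huh-7 and Ako-3 overlapped, and all Mko-3 libraries were higher. Its log2 fold change was -0.03 (adjusted p = 0.909) in Ako-3 and 0.44 (adjusted p = 0.0271) in Mko-3 cells, short of the fold threshold. The antisense entry CYP1B1-AS1 had 5 to 26 counts per library. CYP1A2, the caffeine demethylase that neighbours CYP1A1, was too low to be tested. Its counts were 25, 4 and 15 in Huh-7, 6, 3 and 4 in Ako-3 and 3, 4 and 0 in Mko-3 libraries.

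AHR, the receptor for these genes, fell in both knockouts. It had 18.1, 16.9 and 17.4 FPKM in Huh-7, 6.41, 7.03 and 6.23 in Ako-3 and 8.33, 8.41 and 7.72 in Mko-3 libraries, with no overlap between any pair of groups. It changed by a log2 fold of -1.42 ± 0.07 in Ako-3 (adjusted p = 2.61e-12) and -1.11 ± 0.067 in Mko-3 cells (adjusted p = 2.32e-11). Of 5 AHR targets outside the P450 family, 4 were tested. By adjusted p alone, 2 lay above Huh-7 and 1 below in Ako-3 cells, beside 25.5% and 24.4% of all genes. In Mko-3 cells 2 lay above and 2 below, beside 26.9% and 27.1%. AHRR, the AHR repressor, was the 1 among the 4 that passed both thresholds against Huh-7. Its log2 fold changes were 1.13 ± 0.43 (adjusted p = 0.034) in Ako-3 and 1.46 ± 0.41 (adjusted p = 0.00469) in Mko-3 cells. It had 5 to 17 counts per Huh-7 library. Its call in Ako-3 cells was lost when Huh-7 replicate 2 or 3 or Ako-3 replicate 2 or 3 was left out (log2 fold change 0.90, 0.93, 1.12 and 0.90) and with DESeq2 (1.16). TIPARP, an ADP-ribosyltransferase that represses AHR, had log2 fold changes of -0.45 and -0.74 in Ako-3 and Mko-3 cells. NQO1, a quinone reductase, had 0.36 and 0.41. ALDH3A1, an aldehyde dehydrogenase, had 0.43 (adjusted p = 0.272) in Ako-3 and -0.89 (adjusted p = 0.049) in Mko-3 cells, with 13 to 60 counts per library.

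The letters GCGTG, the core of the AHR binding motif, were searched on both strands in the 250 bases before the RefSeq start of each gene (GRCh38.p14). An entry existed for 37 of the 50 members, and 8 of these held the motif. Of the 20 tested members with an entry, it was found in 6 (CYP1A1, CYP20A1, CYP26C1, CYP2A7, CYP2J2 and CYP2W1), beside 32.2% of all 35116 promoters. A match is a description of the letters and not of binding. The sites of CYP1A1 and CYP2W1, the fallen members with the highest levels among them, are shown with the motif in capitals. For CYP1A1 these are 30 bases of chr15:74725569-74725598 (minus strand) and for CYP2W1 the 250 bases of chr7:982931-983180 (plus strand), where the motif occurs on the opposite strand as CACGC. The CYP1A1 bases lie before the RefSeq start but within the gene as deposited (chr15:74719542-74725610).
CYP1A1: tccagggaaggagGCGTGgccacacgtaca
CYP2W1: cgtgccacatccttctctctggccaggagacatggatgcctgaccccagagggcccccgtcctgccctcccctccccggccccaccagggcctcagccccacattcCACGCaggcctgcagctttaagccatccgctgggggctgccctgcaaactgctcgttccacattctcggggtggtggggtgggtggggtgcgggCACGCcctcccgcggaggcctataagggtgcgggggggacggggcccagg

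**Figure D4:**
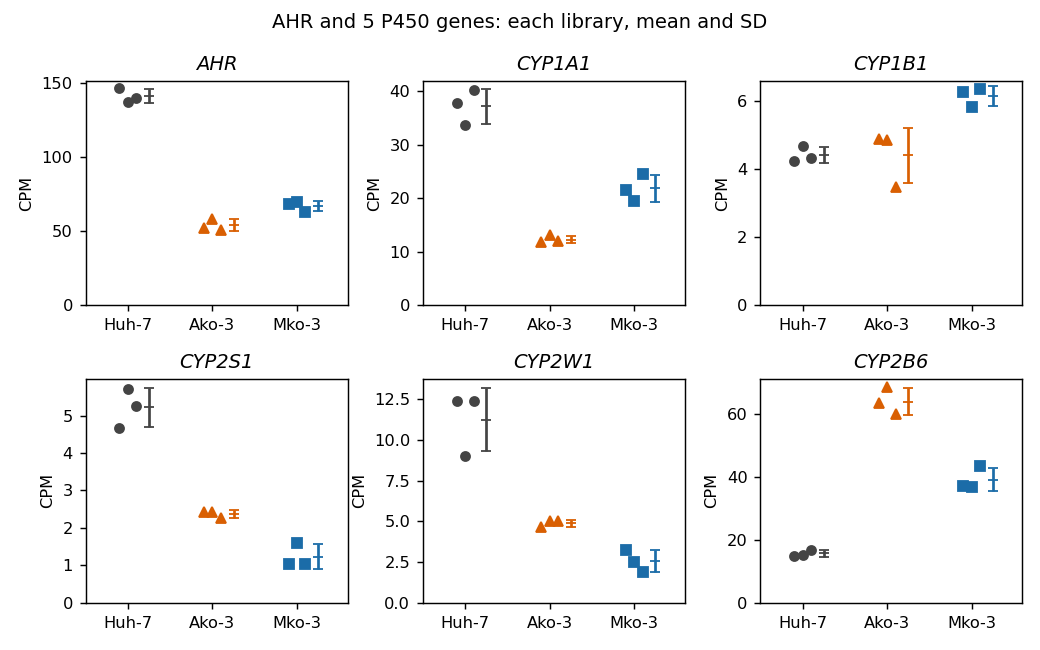
Normalized counts (CPM, axes from 0) of AHR and 5 P450 genes in each library of Huh-7 (circles), Ako-3 (triangles) and Mko-3 cells (squares), with the group mean and SD beside the points. AHR, CYP1A1, CYP2S1 and CYP2W1 are lower in all knockout libraries than in all Huh-7 libraries, and CYP2B6 is higher in all of them. For CYP1B1 the Huh-7 and Ako-3 points overlap, and all Mko-3 points lie above them.

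CYP2W1, an orphan P450 that is expressed in fetal gut and in tumours, fell most in Mko-3 cells. It had 4.47, 3.24 and 4.47 FPKM in Huh-7, 1.65, 1.75 and 1.80 in Ako-3 and 1.15, 0.896 and 0.679 in Mko-3 libraries. The 3 groups were separate, in the order Huh-7, Ako-3, Mko-3. CYP2W1 changed by -1.23 ± 0.16 (log2) in Ako-3 (adjusted p = 1.79e-06) and -2.16 ± 0.19 in Mko-3 cells (adjusted p = 6.96e-09). CYP2S1, an extrahepatic P450 known to respond to AHR ligands, had 1.63, 1.98 and 1.83 FPKM in Huh-7, 0.840, 0.820 and 0.778 in Ako-3 and 0.351, 0.550 and 0.361 in Mko-3 libraries. It showed the same order without overlap, and fell by 1.16 ± 0.20 in Ako-3 (adjusted p = 5.43e-05) and by 2.10 ± 0.24 in Mko-3 cells (adjusted p = 2.08e-07) on the log2 scale.

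CYP2B6, which metabolizes bupropion and efavirenz, was the member that rose most in Ako-3 cells. Its FPKM was 4.0, 4.02 and 4.52 in Huh-7, 16.7, 17.7 and 15.8 in Ako-3 and 9.72, 9.59 and 11.4 in Mko-3 libraries. Every knockout library lay above the Huh-7 libraries and every Ako-3 library above the Mko-3 libraries. CYP2B6 rose by 1.99 ± 0.088 (log2) in Ako-3 (adjusted p = 6.06e-13) and 1.28 ± 0.098 in Mko-3 cells (adjusted p = 8.1e-10). The pseudogene entry that resembles it, CYP2B7P, had 3 to 17 counts per library, beside 231 to 1329 counts for CYP2B6. The bases before its start are shown as those of the member that rose most in Ako-3 cells. They cover chr19:40991032-40991249 (plus strand, GRCh38.p14 from RefSeq) and end where the gene begins in the deposited annotation. The AHR core was not among them.
CYP2B6: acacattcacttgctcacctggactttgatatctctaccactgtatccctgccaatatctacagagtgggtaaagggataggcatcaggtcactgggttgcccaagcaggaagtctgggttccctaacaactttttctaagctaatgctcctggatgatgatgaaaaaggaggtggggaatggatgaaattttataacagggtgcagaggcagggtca

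The receptors that drive CYP2B6 did not pass the thresholds. NR1I2 had 1.05, 0.828 and 1.14 FPKM in Huh-7, 0.975, 1.44 and 1.25 in Ako-3 and 1.23, 1.14 and 1.07 in Mko-3 libraries, and the groups overlapped. Its log2 fold change was 0.28 ± 0.18 (adjusted p = 0.212) in Ako-3 and 0.17 ± 0.17 (adjusted p = 0.397) in Mko-3 cells. NR1I3 had 2.24, 2.02 and 2.03 FPKM in Huh-7, 1.99, 1.78 and 1.87 in Ako-3 and 1.49, 1.42 and 1.32 in Mko-3 libraries. All Mko-3 libraries were the lowest, with a log2 fold change of -0.58 ± 0.16 (adjusted p = 0.0041), and that in Ako-3 cells was -0.16 ± 0.15 (adjusted p = 0.384).

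Of the CYP2C genes, which lie together on chromosome 10 and metabolize drugs and arachidonic acid, CYP2C8 rose in Mko-3 cells. CYP2C8, which clears paclitaxel, had 1.26, 1.10 and 1.34 FPKM in Huh-7, 2.75, 2.05 and 2.23 in Ako-3 and 2.95, 2.57 and 3.21 in Mko-3 libraries. The knockouts overlapped with each other and not with Huh-7. On the log2 scale it rose by 1.21 ± 0.17 in Mko-3 cells (adjusted p = 5.32e-06). In Ako-3 cells it differed by 0.91 ± 0.19 (adjusted p = 0.000401), and there it passed both thresholds (1.00) without Ako-3 replicate 2. CYP2C18 had 12 to 28 counts per library, and its log2 fold changes of 0.08 and 0.52 did not pass the test.

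CYP2A6, the nicotine oxidase, and CYP2A7, a near-identical neighbour whose product is thought to be inactive, were low in all libraries. CYP2A6 had 1.2, 0.765 and 1.13 FPKM in Huh-7, 0.650, 0.676 and 0.669 in Ako-3 and 0.529, 0.482 and 0.437 in Mko-3 libraries, with no overlap. It fell by 1.11 ± 0.30 on the log2 scale in Mko-3 cells (adjusted p = 0.00357), which missed the fold threshold without Huh-7 replicate 1 (-0.99), and its log2 fold change in Ako-3 cells was -0.64 ± 0.27 (adjusted p = 0.0556). CYP2A7 had 0.845, 1.01 and 0.574 FPKM in Huh-7, 0.327, 0.388 and 0.444 in Ako-3 and 0.304, 0.219 and 0.0754 in Mko-3 libraries, again without overlap. On the log2 scale it fell by 1.98 ± 0.40 in Mko-3 (adjusted p = 0.000248) and by 1.06 ± 0.32 in Ako-3 cells (adjusted p = 0.00846), and missed the fold threshold in Ako-3 cells without Huh-7 replicate 2 (-0.87) or Ako-3 replicate 1 (-0.95). CYP2A7 had 3 to 41 counts per library.

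DBP and HLF, transcription factors of the PAR bZIP family that bind the D-box, fell in Mko-3 cells. CEBPB, a bZIP factor of the acute phase response, also fell there. TEF, another listed factor of the PAR bZIP family, was tested and passed both thresholds in neither knockout. DBP had 3.44 to 4.93 FPKM in Huh-7, 2.93 to 3.69 in Ako-3 and 1.59 to 1.78 in Mko-3 libraries, and differed from Huh-7 by -0.36 (log2, adjusted p = 0.0254) and -1.30 (adjusted p = 2.64e-08). HLF had log2 fold changes of -0.69 and -1.02. The latter lay between -0.99 and -1.0 without Huh-7 replicate 1 or 3 or Mko-3 replicate 1 or 2. CEBPB had -0.75 and -1.29. The D-box letters TTATGTAA, searched in the same way, occurred before 2 of the 37 members, CYP2A6 and CYP2A7, beside 0.834% of all promoters. In both genes the site is part of a match to the C/EBP motif TTNNGNAAT, found before 5 of 37 members and 9.85% of all promoters. Both motifs were chosen after the values were seen, so these shares are no test. The 2 D-box matches lie in near-identical sequences and are not independent. A match is a description of the letters and not of binding. The 250 bases before CYP2A6 (chr19:40850448-40850697, minus strand, GRCh38.p14 from RefSeq) are shown with the D-box in capitals.
CYP2A6: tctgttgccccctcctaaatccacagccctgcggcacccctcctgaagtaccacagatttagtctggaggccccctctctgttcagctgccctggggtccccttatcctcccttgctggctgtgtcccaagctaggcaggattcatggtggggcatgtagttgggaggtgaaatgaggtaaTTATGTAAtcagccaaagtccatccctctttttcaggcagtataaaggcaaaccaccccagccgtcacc

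The 250 bases before CYP2A6 and CYP2A7 were identical at 240 positions (96%). The 30 bases around the D-box are given for both, from chr19:40850498-40850527 and chr19:40882282-40882311 (both minus strand), to show the match beside the few letters that differ. Those of CYP2A7 lie before the RefSeq start but within the gene as deposited (chr19:40875439-40882752).
CYP2A6: aaatgaggtaaTTATGTAAtcagccaaagt
CYP2A7: aaataaggtgaTTATGTAAttagccaaagt

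CYP2J2, which makes epoxides of arachidonic acid, had 5.94, 6.90 and 5.53 FPKM in Huh-7, 8.07, 7.65 and 9.35 in Ako-3 and 8.50, 9.23 and 8.99 in Mko-3 libraries. All knockout libraries were higher than the Huh-7 libraries, and the knockouts overlapped. The differences of 0.45 ± 0.11 (log2, adjusted p = 0.00162) and 0.53 ± 0.10 (adjusted p = 0.00013) were short of the fold threshold. CYP2D6 had log2 fold changes of -0.01 and -0.51 and CYP3A5 of -0.14 and 0.06 in Ako-3 and Mko-3 cells, and none passed the test. CYP2D7, annotated apart as a polymorphic pseudogene, had 6 to 36 counts per library, beside 19 to 57 for CYP2D6.

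The CYP4F genes, omega-hydroxylases of leukotrienes, long-chain fatty acids and vitamin K, lie in a cluster of 6 members over 426.4 kb of chromosome 19. Of the 4 that were expressed, CYP4F3 and CYP4F12 fell and CYP4F2 and CYP4F11 rose in Mko-3 cells. CYP4F3 (chr19:15640897-15662825 in the deposited annotation, hg38), which inactivates leukotriene B4, had 13.1, 11.1 and 13.1 FPKM in Huh-7, 8.98, 8.75 and 8.13 in Ako-3 and 5.16, 4.91 and 4.68 in Mko-3 libraries. CYP4F12, 9.9 kb further on, had 11.8, 10.8 and 11.6 FPKM in Huh-7, 6.47, 6.08 and 5.88 in Ako-3 and 4.79, 4.48 and 4.76 in Mko-3 libraries. In both genes the groups were separate, with Huh-7 highest and Mko-3 lowest. The log2 fold changes of CYP4F3 were -0.53 ± 0.081 (adjusted p = 1.48e-05) in Ako-3 and -1.35 ± 0.084 (adjusted p = 4.1e-11) in Mko-3 cells. Those of CYP4F12 were -0.90 ± 0.078 (adjusted p = 9.98e-09) and -1.30 ± 0.079 (adjusted p = 2.65e-11).

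CYP4F2, which degrades vitamin K, lies on the opposite strand, with its end 180.8 kb beyond CYP4F12. It had 1.39, 1.21 and 1.62 FPKM in Huh-7, 2.73, 3.42 and 2.30 in Ako-3 and 3.64, 2.98 and 2.42 in Mko-3 libraries, so that the knockouts overlapped and both lay above Huh-7. Its log2 fold change was 1.08 ± 0.17 in Mko-3 cells (adjusted p = 2.09e-05), or 0.93 without Mko-3 replicate 1. In Ako-3 cells it was 0.99 ± 0.18 (adjusted p = 9.1e-05), just short of the threshold, which it passed without Huh-7 replicate 3 (1.11), Ako-3 replicate 1 (1.02) or Ako-3 replicate 3 (1.12). CYP4F11, at the end of the cluster, also hydroxylates vitamin K and fatty acids. Its FPKM was 0.185, 0.309 and 0.232 in Huh-7, 0.524, 0.523 and 0.470 in Ako-3 and 1.31, 1.26 and 1.5 in Mko-3 libraries, again in 3 separate groups. It rose by a log2 fold change of 2.48 ± 0.24 in Mko-3 cells (adjusted p = 2.9e-08), the largest rise among the members, and of 1.07 ± 0.31 in Ako-3 cells (adjusted p = 0.00638), or 0.91 without Huh-7 replicate 1. It rested on 14 to 19 counts in the Huh-7 libraries. CYP4V2, a fatty acid hydroxylase on chromosome 4, had log2 fold changes of -0.09 and 0.14 that did not pass the test.

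**Figure D5:**
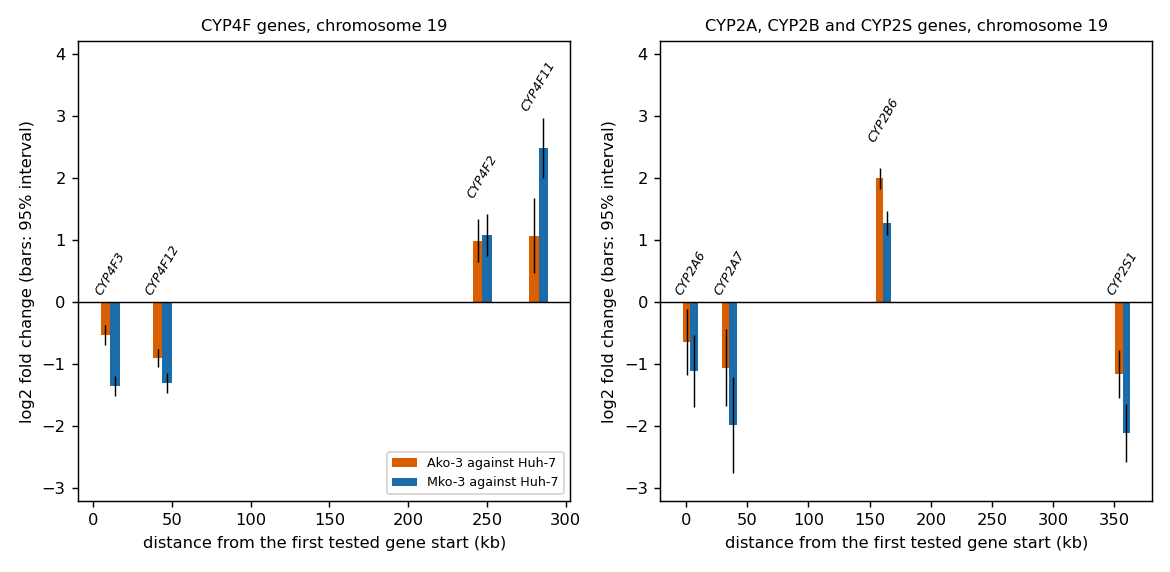
Log2 fold change against Huh-7 (vertical axis, bars of 95% confidence intervals) of the tested P450 genes in the CYP4F cluster (left) and the CYP2A-CYP2B-CYP2S cluster (right) of chromosome 19, by distance in kb from the first tested gene. Orange bars are Ako-3 and blue bars Mko-3 cells. CYP4F3 and CYP4F12 point down and CYP4F2 and CYP4F11 up, and CYP2B6 points up between CYP2A7 and CYP2S1, which point down.

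The other P450 cluster of chromosome 19 held 6 members over 364.0 kb, of which CYP2A6, CYP2A7, CYP2B6 and CYP2S1 were tested. CYP2B6 rose in both knockouts, and CYP2A7, 108.5 kb before it, and CYP2S1, beyond CYP2F1, fell in both. Because genes within these clusters are alike, the reads they could share were counted. Of all windows of 100 bases in the canonical transcript (GENCODE release 44), CYP4F3 shared 1.88% and CYP4F2 4.11% with each other, while CYP4F11 and CYP4F12 shared none with another gene. CYP2B6 shared 0.774% with CYP2B7P, while CYP2C8 shared none. CYP2A6 and CYP2A7 shared 11.7% and 11.5%, with each other and with CYP2A13. CYP2C18 shared 37.6% with a read-through entry, CYP26A1 32.4% with a noncoding entry that had almost no counts, and CYP2D6 14.2% with CYP2D7 and CYP2D8P. Among the members too low to be tested, CYP3A7 shared 71.1%, CYP2C19 33.9% and CYP21A2 29.5% with other genes. Whether shared reads lowered their counts was not tested. The levels of CYP2A6, CYP2A7, CYP2C18, CYP26A1, CYP2D6, CYP3A7, CYP2C19 and CYP21A2 are therefore less certain than those of CYP4F11, CYP4F12 or CYP2C8.

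The retinoic acid hydroxylases held both the most abundant P450 gene and one of the scarcest tested. CYP26B1 had 27.1, 25.9 and 23.7 FPKM in Huh-7, 22.2, 22.4 and 21.9 in Ako-3 and 35.5, 35.0 and 36.3 in Mko-3 libraries. Every Ako-3 library was below and every Mko-3 library above all Huh-7 libraries. Relative to Huh-7 it differed by -0.21 ± 0.066 (log2, adjusted p = 0.0117) in Ako-3 and 0.46 ± 0.064 (adjusted p = 2.99e-06) in Mko-3 cells, short of the fold threshold in both. CYP26A1, its best known relative, had 0.881 to 1.52 FPKM in Huh-7, 1.27 to 1.60 in Ako-3 and 1.00 to 1.04 in Mko-3 libraries. Both knockouts overlapped with Huh-7, and every Mko-3 library was below every Ako-3 library (log2 fold change -0.44, adjusted p = 0.063). CYP26C1 had 0.622, 0.480 and 0.440 FPKM in Huh-7, 0.221, 0.0920 and 0.328 in Ako-3 and 0.244, 0.0388 and 0.268 in Mko-3 libraries. Both knockouts lay below Huh-7 and overlapped with each other. CYP26C1 fell by 1.29 ± 0.36 (adjusted p = 0.00518) and 1.51 ± 0.41 (adjusted p = 0.00443) on the log2 scale. It had 3 to 51 counts per library, and missed the fold threshold in Ako-3 cells without Ako-3 replicate 2 (-0.90). Of 18 genes of retinoid handling, 12 were tested, and none passed the thresholds in either knockout against Huh-7.

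CYP19A1, the aromatase that makes estrogens from androgens, was the 1 tested member among 6 of steroid hormone synthesis. It had 1.62, 1.79 and 1.49 FPKM in Huh-7, 2.20, 2.10 and 1.47 in Ako-3 and 0.659, 0.602 and 0.639 in Mko-3 libraries. Huh-7 and Ako-3 overlapped, and all Mko-3 libraries were lower. CYP19A1 fell by 1.37 ± 0.14 on the log2 scale in Mko-3 cells (adjusted p = 3.05e-08), and its log2 fold change in Ako-3 cells was 0.23 ± 0.14 (adjusted p = 0.161). CYP17A1 and CYP21A2, also of this group, had 3 to 11 and 0 to 8 counts per library. CYP2R1, the vitamin D 25-hydroxylase, had 2.49 to 3.71 FPKM with log2 fold changes of -0.22 and -0.35, and CYP27B1, the 1-alpha-hydroxylase, had -0.09 and -0.43. CYP39A1, an oxysterol hydroxylase, had -0.27 and -0.36, and CYP20A1, an orphan P450, 0.16 and 0.25.

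Genes for electron donors, heme synthesis and most regulators of P450 genes did not pass the thresholds, as was the case for most genes tested. POR had 66.4, 64.0 and 58.5 FPKM in Huh-7, 63.5, 65.5 and 65.9 in Ako-3 and 55.2, 55.2 and 57.4 in Mko-3 libraries. Mko-3 was lowest throughout, with a log2 fold change of -0.18 ± 0.061 (adjusted p = 0.0142), and that in Ako-3 cells was 0.04 ± 0.061 (adjusted p = 0.601). None of 8 tested redox partners, 13 genes of heme synthesis and breakdown or 12 of retinoid handling was differentially expressed against Huh-7. Of 25 regulators, all tested, 1 rose and 2 fell in Ako-3 cells, and 1 rose and 5 fell in Mko-3 cells, beside 3.52% higher and 5% lower of all genes in Ako-3 and 3.82% and 7.22% in Mko-3 cells. AHR and NR3C1, the glucocorticoid receptor, fell in both. NR3C1 had 2.62 to 3.09 FPKM in Huh-7, 0.993 to 1.41 in Ako-3 and 1.35 to 1.54 in Mko-3 libraries, and changed by -1.25 ± 0.12 (log2, adjusted p = 5.12e-08) and -1.02 ± 0.11 (adjusted p = 6.41e-08). The latter missed the fold threshold without Huh-7 replicate 3 (-0.95) or Mko-3 replicate 1 or 3 (-0.98 and -0.97). Of 10 tested phase I enzymes outside the family, 1 passed both thresholds against Huh-7. XDH, the xanthine oxidase, rose in Ako-3 cells (1.09 ± 0.18, adjusted p = 5.09e-05, and 0.97 or 0.99 without Huh-7 replicate 1 or Ako-3 replicate 1). By adjusted p alone, 6 of these 10 enzymes lay above their Huh-7 level there and 2 below (median log2 fold change 0.41). Over all genes the shares were 25.5% and 24.4%. In Mko-3 cells 3 of the 10 lay above and 4 below, beside 26.9% and 27.1%. The 6 lists together gave 2 higher and 2 lower calls among 71 tested genes in Ako-3 and 1 and 5 in Mko-3 cells, with median log2 fold changes of 0.05 and -0.08. Over all genes 8.52% and 11% were differentially expressed. All 5 lower calls in Mko-3 cells came from the 25 regulators. Whether the lists differ from the background at both thresholds was not tested. By adjusted p alone, 31 of the 71 genes lay below Huh-7 in Mko-3 cells and 18 above it. The shares of all genes were 27.1% and 26.9%. Among the 25 regulators, 15 lay below and 4 above. For Ako-3 cells, the pooled lists had 18 genes below Huh-7 and 22 above, beside 24.4% and 25.5%, and the regulators 11 and 5. Whether the lists differ from the background by this measure was not tested.

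The knockouts were also compared with each other. CYP4F11 was higher in Mko-3 than in Ako-3 cells, by a log2 fold change of 1.41 ± 0.20 (adjusted p = 1.29e-08), and CYP19A1 lower, by -1.61 ± 0.13 (adjusted p = 7.43e-17). These were 2 of 26 members, beside 5.73% of all 15528 genes tested (2.26% higher and 3.47% lower). By adjusted p alone 4 members were higher in Mko-3 cells, namely CYP26B1 (0.67), CYP1A1 (0.82), CYP1B1 (0.47) and CYP4F11. Another 7 were lower, among them CYP2B6 (-0.72), CYP4F3 (-0.82), CYP4F12 (-0.40), CYP2W1 (-0.93), CYP2S1 (-0.95) and CYP19A1, and the other 15 did not pass. Of all genes, 41.6% passed (21.1% higher and 20.6% lower). CYP2W1 and CYP2A7 passed both thresholds without Mko-3 replicate 1 (-1.14 and -1.35), and CYP2S1 without Mko-3 replicate 2 (-1.19). In Mko-3 cells 5 members were higher and 10 lower than in Ako-3 cells without overlap of libraries. Of all genes, 26.1% were higher and 23.6% lower in this way (49.8% in either direction). Among the listed genes, CRABP2, which delivers retinoic acid to its receptors, was higher in Mko-3 than in Ako-3 cells (1.98 ± 0.42, adjusted p = 5.87e-05), with 22 to 33 counts against 2 to 11. ALDH3A1 and FMO1, a flavin monooxygenase, were lower (-1.32 and -1.25). AHR differed by 0.31 ± 0.061 (adjusted p = 2.18e-05), short of the fold threshold.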

How the data were processed

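Gene counts and FPKM values of 9 poly(A) RNA libraries were used, grouped by the cell line in their labels. The authors aligned the reads with HISAT2 2.0.5, counted them on genes with featureCounts 1.5.0-p3, per the labels, and deposited the raw counts without normalization. The deposited FPKM values are these counts per gene length, divided by a factor per library that was proportional to its median-of-ratios size factor and not to its total. Whether strand was used in counting is not given in the sources used here. Positions are those of the files, and all 50 members overlapped the gene of the same identifier in GENCODE release 44 (hg38).

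Counts were tested with edgeR 4.0.16 (R 4.3.3) by its robust quasi-likelihood F test, with TMM factors and the filterByExpr filter (minimum count 10), on the 6 libraries of each comparison, with Benjamini-Hochberg adjustment over all genes tested. SE is the absolute log2 fold change divided by the square root of F. The 95% intervals in the figures are the log2 fold change ± 1.96 SE. They rest on a normal quantile and are narrower than the F test would give. The scripts were tested on simulated data. CPM were computed with TMM factors over all 9 libraries. At these depths, a group with at most 3 counts in every library was taken as at the floor. Of the tested members, 1 is counted in all totals but is not reported here. Values per library are given for the other members differentially expressed in any comparison and for the 5 with the highest mean FPKM, and for AHR, NR1I2, NR1I3 and POR. Other listed genes are named where differentially expressed, and TIPARP and NQO1 were added after their values were seen. The members and gene lists were chosen with earlier results of these data known. The promoters shown and the motifs were chosen after seeing the values.

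The labels call the libraries biological replicates and name no batch. Pairs of libraries of a group differed by more than sampling noise, so none was counted as a duplicate. The p-values measure the spread between cultures of the same cell line, where each knockout is 1 clone. Between pairs of libraries, chi-square per degree of freedom was 6.93 to 8.88 in Huh-7, 3.12 to 3.45 in Ako-3 and 2.43 to 2.84 in Mko-3 cells. Each fit pooled the spread over the groups it held. Alternatives were DESeq2 1.42.0, other size factors and filters, all 9 libraries in 1 fit, a replicate block, limma 3.58.1 on log2(FPKM + 1) and log2(FPKM + 0.1), and leaving out each library. Library size alone was added after seeing the data.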

Additional observations from a re-analysis of the deposited data

Results flagged for a closer look

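At both thresholds (edgeR), 2 of 26 tested P450 genes differed between the Mko-3 and Ako-3 clones, beside 5.73% of all genes tested. By adjusted p alone, 4 were higher and 7 lower in Mko-3 cells, beside 21.1% and 20.6% of all genes. Clone and knockout cannot be told apart. CYP19A1 was lower in Mko-3 cells by a log2 fold change of -1.61, in 3 of 3 libraries. CYP4F11 was higher in Mko-3 cells by 1.41, in 3 of 3 libraries. CYP26B1 stood out because all Ako-3 libraries lay below and all Mko-3 libraries above the Huh-7 libraries. Its log2 fold change between the knockouts was 0.67 (adjusted p = 2.04e-21), short of the fold threshold.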

How the results depend on the processing

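Of the alternatives, log2(FPKM + 1) with limma moved the P450 counts most, since the pseudocount shrinks low genes. It called 1 member higher and 1 lower in Ako-3 cells, 1 and 3 in Mko-3 cells, and 0 and 0 between the knockouts. It called 190 higher and 157 lower of all genes in Ako-3, 225 and 254 in Mko-3, and 89 and 124 between the knockouts. With log2(FPKM + 0.1), 3 members were lower in Ako-3 cells. At least 10 counts in every library left 359 genes higher and 482 lower in Ako-3, 696 lower in Mko-3, and 193 and 318 between the knockouts. CYP4F2 passed both thresholds in Ako-3 cells with DESeq2, with no filter and with all 9 libraries in 1 fit. CYP4F11 missed the fold threshold there with library size alone (0.98), and its lowest log2 fold change among the alternatives was 0.28. The values nearest 0 in Ako-3 cells were -0.32 for CYP26C1, -0.38 for CYP2A7, -0.63 for CYP2S1 and -0.88 for CYP2W1, all short of the fold threshold. DESeq2 gave no adjusted p for 9, 5 and 13 members in Ako-3, Mko-3 and between the knockouts. A level above 0.5 FPKM was met by 23 members in Ako-3 cells, and above 1 CPM by 24 in Ako-3 and 24 in Mko-3 cells. With library size alone, the higher calls were 30.8% of all calls in Ako-3 cells, beside 41.3% with TMM and 54.8% with log2(FPKM + 1).

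For the 6 gene lists together, higher calls in Ako-3 cells were 1 with DESeq2, with at least 10 counts and with log2(FPKM + 0.1), and 0 with library size alone and log2(FPKM + 1), which gave 1 lower call. In Mko-3 cells they were 2 with no filter and under the replicate block, and 0 with at least 10 counts and both limma settings. Lower calls there were 3 with no filter, 2 with log2(FPKM + 1) and 3 with log2(FPKM + 0.1). Between the knockouts higher calls were 0 with at least 10 counts, and both were 0 with log2(FPKM + 1).

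Leaving out 1 library gave 1 higher list call in Ako-3 cells each time, 1 to 2 in Mko-3 and 1 to 2 between the knockouts, and 1 to 3 members lower between the knockouts. The log2 fold change of POR in Ako-3 cells became -0.053 with library size alone and ranged from -0.0052 to 0.080 when 1 library was left out. Between the knockouts, leaving out 1 library gave -0.24 to 0.044 for NR1I2, -0.61 to 0.27 for CYP26C1 and -0.067 to 0.26 for CYP4F2. None of these passed the test in either form. Same-numbered libraries did not deviate together (correlations from -0.07 to 0.06), so the numbers were not taken as pairs. The replicate block gave 1336, 1730 and 899 differentially expressed genes in Ako-3, in Mko-3 and between the knockouts, beside 1345, 1739 and 890. Depth limits the precision of CYP26C1, CYP2A7, CYP2A6 and CYP4F11, which had 3 to 94 counts per library.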
